A study of Mus musculus with 18 samples.

Results

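Interferon-stimulated effector genes are the genes through which cells exposed to an interferon resist infection. A list of 44 of them, chosen by gene symbol for their known function, was read from the deposited gene table across 6 groups of libraries. Earlier results of these data were known when the list was chosen, so counts over it are a description and no independent test. Of the 44, 42 were among the 18397 genes of the table, and 40 had enough counts to be tested, within 12245 genes tested in all. Ifit3b and Cmpk2 had too few counts, and Mx1 and Mx2 were not analysed here. Of the 40 tested, 35 passed the low-count limit in all 6 groups, while Rtp4 passed in 5, Oas2 and Zbp1 in 2, and Rsad2 and Ifi44 in 1 group. Oas2, Zbp1, Rsad2 and Ifi44 could thus be tested only through groups where they were higher, so their calls carry that selection, and Rtp4 missed the limit in Soft alone.

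The RNA came from 18 libraries, 3 per group, of cells labelled RAW264.7, a macrophage line established from a mouse tumor that Abelson leukemia virus had induced. Their groups, with names that the labels give and a matrix that the series' description names, were Stiff-TW, Stiff+mito and Stiff on a stiff matrix, and Soft-TW, Soft+mito and Soft on a soft one, where TW and mito name conditions that the labels do not spell out. The labels give no stiffness, dose or time, and no genetic change, and every group is of that 1 cell line. The series title places the work in mitochondrial transfer that depends on stiffness, in tumor progression. Whether the 3 libraries of a group came from separate cultures is not given, so the p-values speak to the variation among these libraries alone, and that may be technical.

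As background, type I interferons signal through the receptor chains Ifnar1 and Ifnar2 and the kinases Jak1 and Tyk2 to a transcription factor complex that holds Stat2 and Irf9. The complex binds interferon-stimulated response elements in promoters, whereas interferon gamma acts through gamma-activated sites. Several of the genes are also direct targets of Irf3 and Irf7 when cells sense foreign or misplaced nucleic acid. Macrophages hold these genes at a low basal level and raise them on infection, and the products cleave or sequester viral RNA, block entry and release of virus, tag proteins with Isg15, or attack the vacuoles of intracellular pathogens.

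To show what the members share in sequence, their promoters were searched for these elements. RefSeq windows of 300 bases in GRCm38.p6, from 250 before to 50 after an annotated start, matched 34 of the 44 members. None was matched for Usp18, Mx1, Mx2, Oas2, Dhx58, Ifi27, Parp9, Zbp1, Parp14 and Rtp4. The core of the interferon-stimulated response element, GAAANNGAA on either strand (TTCNNTTTC when read on the other), stood in the windows of 21 of the 34 members (61.8%), against 9.76% of the 27025 genes with a window and 8.56% of all 32851 windows. The shorter AANNGAAA, which can overlap that core, was found in 29 of the 34 members (85.3%), against 26.7% of all genes. The gamma-activated site TTCNNNGAA, which reads the same on both strands and can also overlap the core, was found in 9 members (26.5%), against 9.55% of all genes. A match is a description of the letters and no measure of binding.

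**Figure D1:**
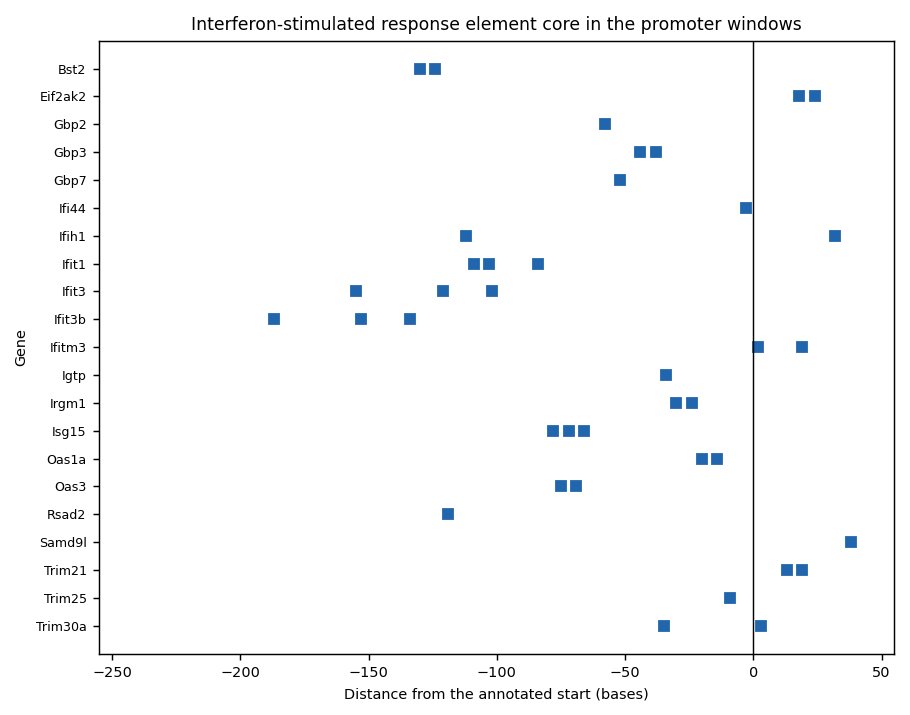
Position of each GAAANNGAA or reverse match (squares) in the promoter windows of the 21 members that hold one, in bases from the annotated start (vertical line at 0). The matches lie on both sides of the start, and most lie before it.

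The windows of the 6 members with a core match and the highest mean level are printed from 5′ to 3′ on the strand of the gene, to show how the element looks in the most abundant members, with every core match in capitals. In Isg15 3 matches overlap in 1 run, and in Bst2, Eif2ak2 and Irgm1 2 matches overlap. Trim25 holds 1 match, on the strand opposite to the gene, and Ifitm3 has 2 separate ones after its start. Counting the annotated start as 0, the match nearest to it begins at -66 in Isg15, 2 in Ifitm3, -124 in Bst2, -9 in Trim25, 18 in Eif2ak2 and -24 in Irgm1. The windows are chr7:141010695-141010994 (minus strand) for Ifitm3, chr8:71537423-71537722 (minus strand) for Bst2, chr11:88999153-88999452 (plus strand) for Trim25, chr17:78882523-78882822 (minus strand) for Eif2ak2, chr11:48871371-48871670 (minus strand) for Irgm1 and chr4:156200769-156201068 (minus strand) for Isg15.
Ifitm3: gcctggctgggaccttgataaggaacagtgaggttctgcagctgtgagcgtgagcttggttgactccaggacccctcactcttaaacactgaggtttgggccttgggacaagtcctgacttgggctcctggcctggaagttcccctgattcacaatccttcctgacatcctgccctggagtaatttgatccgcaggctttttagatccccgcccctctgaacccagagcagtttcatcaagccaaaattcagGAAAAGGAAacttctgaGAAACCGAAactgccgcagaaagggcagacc
Bst2: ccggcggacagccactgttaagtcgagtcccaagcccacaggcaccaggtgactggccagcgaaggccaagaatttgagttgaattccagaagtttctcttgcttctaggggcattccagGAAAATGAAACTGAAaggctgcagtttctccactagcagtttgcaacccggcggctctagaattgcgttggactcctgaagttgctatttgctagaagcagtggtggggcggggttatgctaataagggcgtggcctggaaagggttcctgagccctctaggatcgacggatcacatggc
Trim25: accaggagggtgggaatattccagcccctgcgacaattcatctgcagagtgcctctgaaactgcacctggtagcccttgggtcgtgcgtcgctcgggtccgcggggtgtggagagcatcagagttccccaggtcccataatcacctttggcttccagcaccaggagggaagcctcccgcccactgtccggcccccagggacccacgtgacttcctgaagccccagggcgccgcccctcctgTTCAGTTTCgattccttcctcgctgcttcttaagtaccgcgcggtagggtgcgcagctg
Eif2ak2: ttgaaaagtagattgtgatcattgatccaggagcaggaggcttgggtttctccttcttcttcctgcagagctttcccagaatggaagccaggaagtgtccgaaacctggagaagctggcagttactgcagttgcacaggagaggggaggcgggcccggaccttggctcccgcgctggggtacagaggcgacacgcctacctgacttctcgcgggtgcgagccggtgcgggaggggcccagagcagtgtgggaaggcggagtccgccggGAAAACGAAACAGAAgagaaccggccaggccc
Irgm1: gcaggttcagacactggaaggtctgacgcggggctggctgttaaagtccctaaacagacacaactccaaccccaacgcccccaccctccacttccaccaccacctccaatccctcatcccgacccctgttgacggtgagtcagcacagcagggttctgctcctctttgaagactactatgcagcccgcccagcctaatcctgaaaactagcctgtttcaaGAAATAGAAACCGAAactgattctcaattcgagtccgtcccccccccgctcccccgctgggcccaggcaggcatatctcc
Isg15: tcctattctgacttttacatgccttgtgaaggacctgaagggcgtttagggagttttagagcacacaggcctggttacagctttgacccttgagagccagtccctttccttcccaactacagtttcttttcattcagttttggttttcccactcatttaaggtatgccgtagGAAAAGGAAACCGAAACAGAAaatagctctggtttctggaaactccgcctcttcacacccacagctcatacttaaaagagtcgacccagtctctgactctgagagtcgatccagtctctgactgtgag

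Estimated counts per library totalled 16054637 to 16887244. Levels are given in TPM (transcript abundance scaled for gene length and depth), and changes as log2 fold changes from edgeR's quasi-likelihood test with an approximate standard error after ±, called at a Benjamini-Hochberg adjusted p under 0.05 over all genes tested. Groups are said to overlap by their TMM-normalised counts where no TPM is printed. The spread between replicate libraries was small (biological coefficient of variation 0.0175), and many small changes passed. The defining markers went against the macrophage label: group means reached at most 0.83 ± 0.234 TPM for Csf1r, 0.0833 ± 0.0513 for Adgre1 and 0.183 ± 0.0777 for Ptprc (SD, n = 3). Of 18 macrophage markers in the table, 0 were at 0 in all 18 libraries and 3 (Lyz2, Cd14 and Mertk) averaged 10 TPM or more. The sum of the 18 ran from 81.7 to 84.7 TPM in Stiff-TW, 59.1 to 63.7 in Stiff+mito, 46.6 to 50.9 in Stiff, 105 to 108 in Soft-TW, 63.9 to 67.7 in Soft+mito and 54.7 to 55 in Soft. Epithelial markers summed to between 671 and 1043 TPM, almost all of it Krt8 and Krt18, with Epcam and Cdh1 near 0, fibroblast markers to between 60.8 and 148, most of it Col1a2 and Pdgfra, and lymphocyte markers to between 0.14 and 1.81. Of 4 plasmacytoid dendritic cell markers the sum ran from 115 to 212 TPM, most of it the member Bst2, while the defining Siglech reached at most 0.05.

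The members covered a wide range of levels. Over the 18 libraries 3 averaged 100 TPM or more, 13 between 10 and 100, 21 between 1 and 10, and 5 less than 1. Ifitm3, a membrane protein that blocks viral entry from endosomes, was the most abundant, at 873, 866 and 866 TPM in Stiff-TW, 759, 711 and 733 in Stiff+mito, 696, 656 and 690.3 in Stiff, 607, 591 and 608 in Soft-TW, 497, 489 and 526 in Soft+mito, and 477, 498 and 493 in Soft. All libraries of each stiff group lay above all of the soft groups, and within each matrix TW was highest. Next was Ifi27, a small interferon-induced membrane protein, at 281, 266 and 271 TPM in Stiff-TW, 138, 142 and 148 in Stiff+mito, 126, 130.4 and 141 in Stiff, 248, 248 and 243 in Soft-TW, 155, 159.5 and 147 in Soft+mito, and 138, 145 and 148 in Soft. Its 6 TW libraries lay above the other 12, which fell within a narrow range. Bst2, or tetherin, which holds budding virus at the cell surface, stood at 189, 195 and 193 TPM in Stiff-TW, 171, 162 and 153 in Stiff+mito, 146, 148 and 149 in Stiff, 158, 157 and 154 in Soft-TW, 107, 108 and 106 in Soft+mito, and 109.7, 103 and 114 in Soft. TW was highest within each matrix, and Soft+mito and Soft overlapped.

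At the low end, Cmpk2, a mitochondrial nucleotide kinase, lay between 0 and 0.16 TPM and Ifit3b, a close copy of Ifit3, between 0.05 and 0.83 TPM. Of the 42 members, 33 had their highest group mean in Stiff-TW, 4 in Stiff, 3 in Soft-TW, 1 in Stiff+mito, 1 in Soft+mito and 0 in Soft. The lowest group mean was in Soft+mito for 16 members, in Stiff for 13 and in Soft for 9. These orders are descriptions, and neighbouring groups in them often overlapped, as for Bst2 in Soft+mito and Soft.

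**Figure D2:**
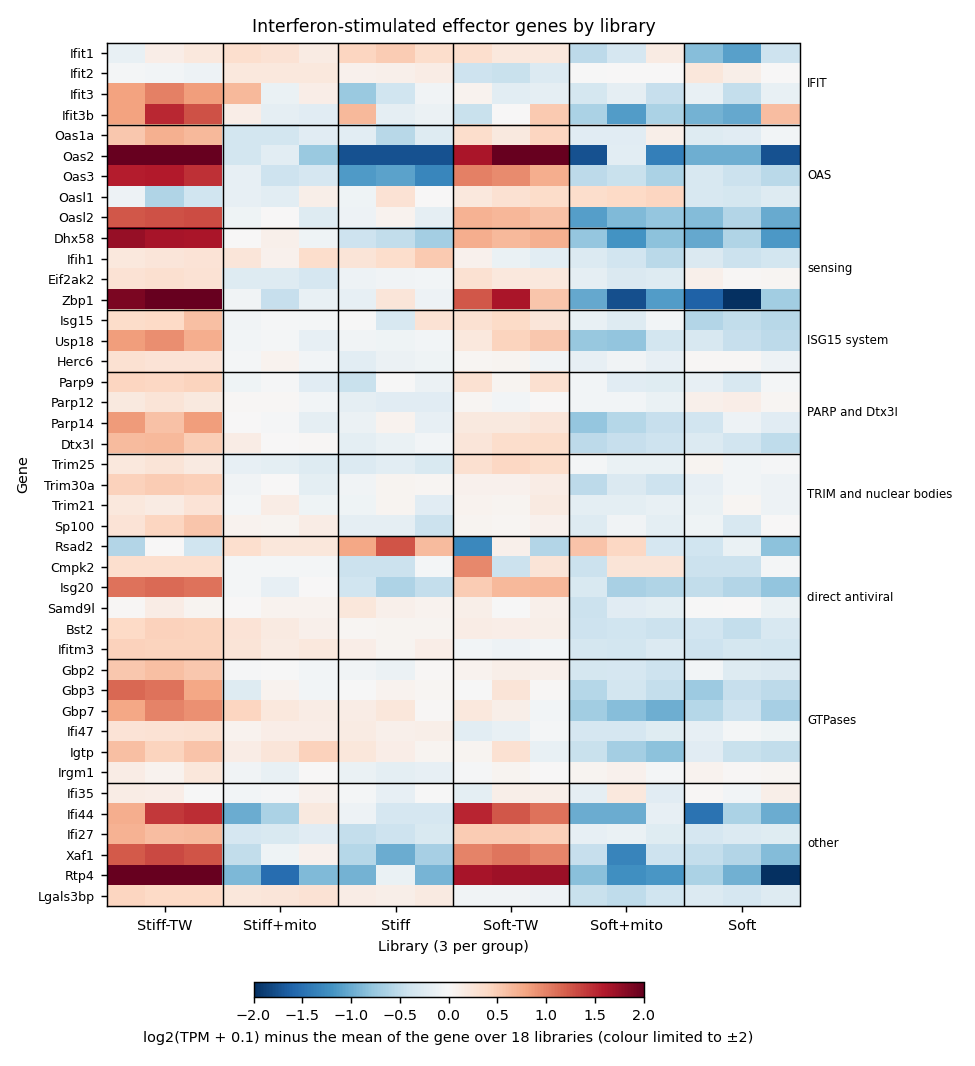
Level of the 42 members in each of the 18 libraries as log2(TPM + 0.1) minus the mean of the gene over the libraries, with members in rows by role and libraries in columns by group. The darkest reds stand in the TW columns for Oas2, Rtp4 and Zbp1, and the 3 libraries of a group mostly share a shade.

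Most of the list was higher with TW on both matrices. In Stiff-TW against Stiff, 34 of the 40 tested members rose and 3 fell, where 35.5% of all genes tested rose and 34.1% fell. In Soft-TW against Soft, 33 rose and 1 fell, where 28.9% of all genes rose and 28.0% fell. Over the 35 members that passed the low-count limit in every group, 30 rose and 2 fell on the stiff matrix, and 29 rose and 1 fell on the soft one. The median log2 fold change of the 40 was 0.54 on the stiff matrix, against 0.01 over all genes, and 0.58 on the soft one, against -0.00.

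Changes of at least 2-fold were fewer. On the stiff matrix 13 members rose and 1 fell by that much, where 4.16% of all genes rose and 1.98% fell so far. On the soft one 10 rose and 0 fell, where 2.50% of all genes rose and 0.408% fell. Oas2, Zbp1, Ifi44 and Rtp4 are among those that rose so far on both matrices, and Rsad2 is the 1 that fell. None of these passed the low-count limit in all 6 groups, so the 2-fold counts carry that selection. The 2 comparisons share no library. Of the members that rose, 29 did so on both, which is 85.3% of the 34 on the stiff matrix and 87.9% of the 33 on the soft one. Over all genes tested, 66.8% of those that rose on the stiff matrix also rose on the soft one, and 82% the other way round. Ifit3, Parp12, Ifi47, Irgm1 and Ifi35 passed on the stiff matrix alone, and Ifit1, Oasl1, Ifih1 and Samd9l on the soft one alone, a contrast that is tested further on as the difference between matrices. The summed macrophage markers were also higher with TW, 81.7 to 84.7 against 46.6 to 50.9 TPM on the stiff matrix and 105 to 108 against 54.7 to 55 on the soft one, as were the summed fibroblast markers, 145 to 148 against 85.2 to 86.3 TPM and 102 to 104 against 67.5 to 70.4. The summed epithelial markers were lower, 671 to 682 against 696 to 714 TPM and 764 to 783 against 999 to 1028, and the part of these lists in the member results was not tested. Col1a2 and Pdgfra made up most of the fibroblast sum. Pdgfrb went the other way on the stiff matrix, with means of 4.81 TPM in Stiff-TW and 6.16 in Stiff, and Dcn, Lum, Thy1 and Fap reached at most 1.37. Most of the macrophage sum was Lyz2, Cd14 and Mertk. From few counts, means in Soft and Soft-TW were 0.0533 and 0.83 TPM for Csf1r, 0.0167 and 1.44 for Laptm5, and 0 and 0.58 for Cybb. In Stiff and Stiff-TW they were 0.09 and 0.31, 0 and 0.703, and 0.00667 and 0.23. Fcgr1 was lower in Soft-TW (0.0667) than in Soft (0.2). In bulk RNA a change in the share of cells that express a gene and a change in RNA per cell cannot be told apart. On the TPM scale the median tested gene of Soft-TW had a log2 ratio of -0.109 to Soft, so TPM ratios there lie slightly under the fitted folds.

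**Figure D3:**
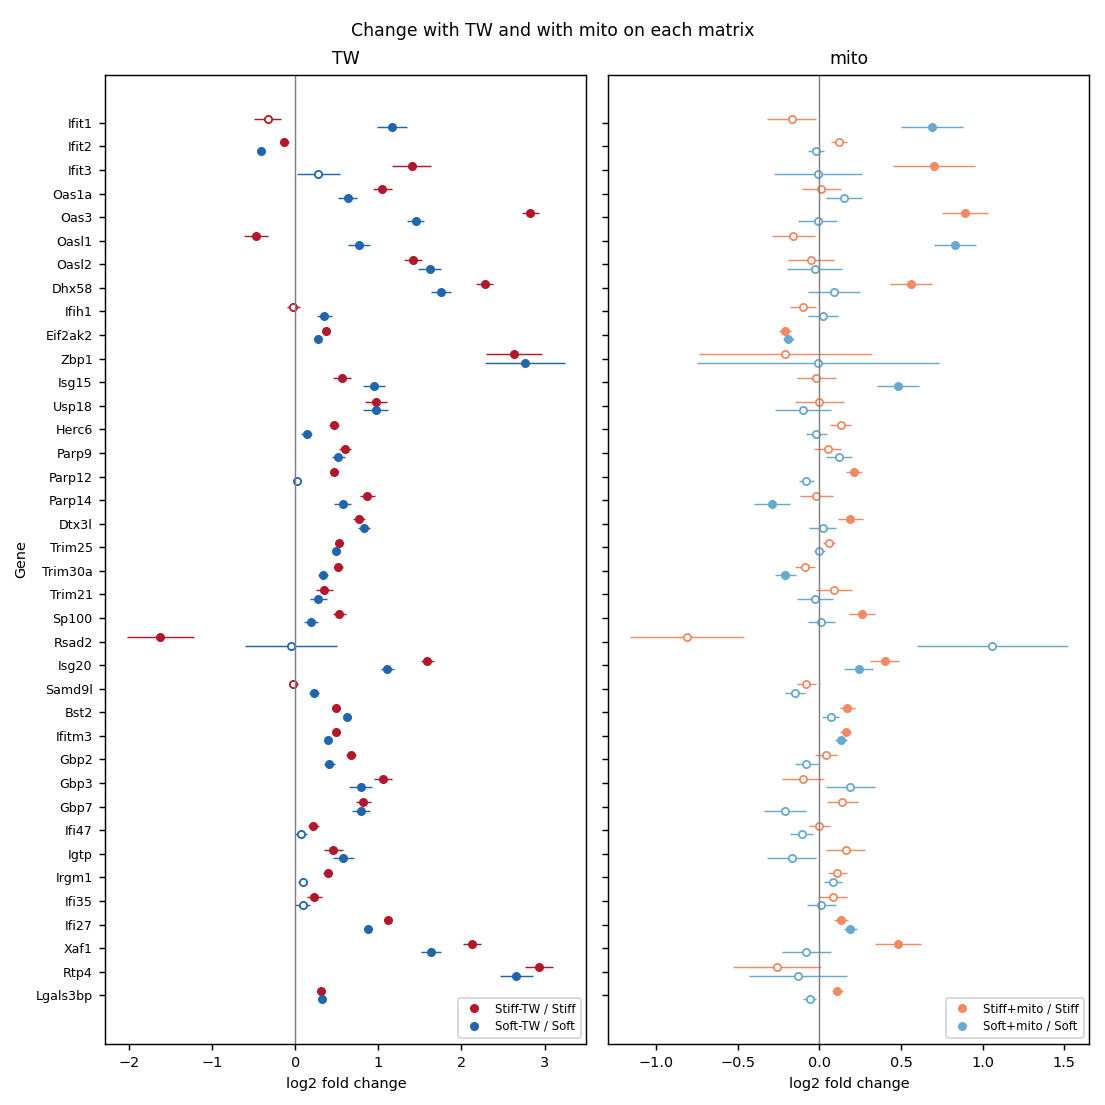
Log2 fold change (points) and approximate standard error (lines) of 38 members with TW (left) and with mito (right), on the stiff and the soft matrix, filled where the adjusted p was under 0.05. Oas2 and Ifi44 are left out because their fitted folds rest on counts near 0, the scales of the 2 panels differ, and most points on the left lie right of 0.

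The oligoadenylate synthetases, which answer double-stranded RNA by making the messenger that activates RNase L, held the largest change, that of Oas2. It was measured at 1.66, 2.22 and 1.63 TPM in Stiff-TW, 0.16, 0.19 and 0.10 in Stiff+mito, 0, 0 and 0 in Stiff, 0.94, 1.53 and 1.26 in Soft-TW, 0, 0.19 and 0.03 in Soft+mito, and 0.07, 0.07 and 0 in Soft. With TW it was clearly present on both matrices, while elsewhere it was at or near 0 and had 0 counts in all 3 Stiff libraries. Against the floor of 3 counts per library Oas2 was at least 21.2-fold higher in Stiff-TW than in Stiff (adjusted p = 4.71e-26). On the soft matrix the Soft-TW libraries summed to 133 counts and the Soft libraries to 3, a scaled ratio of 45.8 with an exact 95% interval of 15.3 to 225 that covers counting error only. Both calls carry selection, because Oas2 passed the low-count limit in 2 groups only.

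Oas3, the largest enzyme of the family, was at 8.83, 8.88 and 8.17 TPM in Stiff-TW, 2.58, 2.15 and 2.26 in Stiff+mito, 1.27, 1.32 and 1.11 in Stiff, 5.92, 5.69 and 4.84 in Soft-TW, 1.99, 2.09 and 1.82 in Soft+mito, and 2.30, 2.13 and 1.96 in Soft. Its TW libraries lay above all others, and Stiff was the lowest group. The log2 fold change was 2.83 ± 0.1 (adjusted p = 5.68e-48) on the stiff matrix and 1.45 ± 0.1 (adjusted p = 3.02e-25) on the soft one. That response was larger on the stiff matrix, by 1.38 ± 0.16 (adjusted p = 1.08e-12).

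Oas1a, another active synthetase, was the most abundant of the family, with 12.6, 14.2 and 13.6 TPM in Stiff-TW against 7.45, 5.87 and 7.24 in Stiff, and 11.1, 9.87 and 11.7 in Soft-TW against 7.25, 7.39 and 8.30 in Soft. Reads of Oas1a were divided between features in 17 of 18 libraries, so its level is uncertain. The TW libraries lay above their controls on both matrices, with 1.05 ± 0.11 (adjusted p = 6.39e-16) on the stiff and 0.63 ± 0.11 (adjusted p = 2.98e-07) on the soft matrix. Oasl2, a mouse oligoadenylate synthetase-like gene, was at 7.61, 7.74 and 7.90 TPM in Stiff-TW, 2.97, 3.16 and 2.62 in Stiff+mito, 2.93, 3.30 and 2.78 in Stiff, 5.17, 5.03 and 4.76 in Soft-TW, 1.41, 1.67 and 1.79 in Soft+mito, and 1.68, 2.06 and 1.52 in Soft. It rose by 1.42 ± 0.11 (adjusted p = 4.36e-22) on the stiff and 1.62 ± 0.14 (adjusted p = 7.01e-20) on the soft matrix, with no overlap between groups, and the difference between these responses was -0.20 ± 0.18 (adjusted p = 0.417).

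Its neighbour Oasl1, which in mouse represses translation of Irf7 mRNA, moved otherwise. Its levels were 4.36, 3.08 and 3.54 TPM in Stiff-TW, 4.18, 4.05 and 5.09 in Stiff+mito, 4.43, 5.76 and 4.74 in Stiff, 5.45, 5.86 and 6.09 in Soft-TW, 6.05, 6.26 and 6.40 in Soft+mito, and 3.73, 3.68 and 3.90 in Soft. Soft+mito had the highest mean, and the Stiff-TW libraries all lay below those of Stiff. Oasl1 fell in Stiff-TW, with a log2 fold change of -0.47 ± 0.14 (adjusted p = 0.00152), and rose in Soft-TW, by 0.77 ± 0.13 (adjusted p = 2.2e-07). The TW response differed between matrices by -1.23 ± 0.19 (adjusted p = 3.13e-08).

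Of the sensors, Dhx58, or LGP2, a helicase that tunes RIG-I-like receptor signalling, was at 15.6, 14.7 and 14.6 TPM in Stiff-TW, 4.64, 4.99 and 4.35 in Stiff+mito, 3.43, 3.25 and 2.84 in Stiff, 7.75, 7.33 and 7.62 in Soft-TW, 2.67, 1.96 and 2.58 in Soft+mito, and 2.22, 3.02 and 2.03 in Soft. The 6 TW libraries stood apart from the rest, and the Stiff-TW ones were the highest. Dhx58 rose by 2.28 ± 0.1 (adjusted p = 5.38e-40) on the stiff and 1.75 ± 0.12 (adjusted p = 1.97e-24) on the soft matrix, and by 0.53 ± 0.18 (adjusted p = 0.0118) more on the stiff one. The difference in Dhx58 did not pass without Soft replicate 2 or Stiff replicate 3 (adjusted p up to 0.197) or by DESeq2 (adjusted p = 0.0561).

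Zbp1, a sensor of left-handed nucleic acid that can start necroptosis, was at 3.66, 6.13 and 4.95 TPM in Stiff-TW, 0.87, 0.64 and 0.82 in Stiff+mito, 0.81, 1.11 and 0.85 in Stiff, 2.31, 3.07 and 1.40 in Soft-TW, 0.40, 0.20 and 0.37 in Soft+mito, and 0.23, 0 and 0.53 in Soft. All TW libraries lay above all others. The counts were low, 99 summed over Stiff-TW against 16 over Stiff, a ratio of 6.31 (exact 95% interval of counting error 3.7 to 11.5, adjusted p = 3.67e-11). Over Soft-TW they summed to 48, against 7 over Soft, a ratio of 7.08 (3.19 to 18.6, adjusted p = 4.26e-07). Both calls carry selection, because Zbp1 passed the low-count limit in 2 groups only.

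Eif2ak2, the kinase PKR that halts translation on double-stranded RNA, was the most abundant sensor, at 30.03, 30.9 and 30.01 TPM in Stiff-TW, 20.7, 20.6 and 19.5 in Stiff+mito, 23.1, 23.6 and 23.8 in Stiff, 30.6, 28.7 and 28.5 in Soft-TW, 21.7, 20.2 and 20.7 in Soft+mito, and 26.4, 25.2 and 25.4 in Soft. It was higher with TW and lower with mito than in the plain matrix, with no overlap on either matrix. The rise with TW was 0.37 ± 0.034 (adjusted p = 5.67e-18) on the stiff and 0.28 ± 0.033 (adjusted p = 1.34e-12) on the soft matrix. Ifih1, the long double-stranded RNA sensor MDA5, had 4.99, 5.10 and 5.22 TPM in Stiff-TW against 5.19, 5.55 and 6.25 in Stiff, and 4.57, 3.93 and 3.71 in Soft-TW against 3.50, 3.17 and 3.33 in Soft. On the stiff matrix the libraries overlapped and the change was -0.02 ± 0.077 (adjusted p = 0.862), whereas Ifih1 rose by 0.35 ± 0.089 (adjusted p = 0.000402) on the soft matrix. The difference between the 2 was -0.37 ± 0.12 (adjusted p = 0.00873). The difference in Ifih1 did not pass without Soft-TW replicate 1 or Stiff replicate 3 (adjusted p up to 0.0619) or by DESeq2 (adjusted p = 0.06).

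The IFIT proteins, which bind viral RNA and its cap, split. Ifit1 was at 2.08, 2.54 and 2.68 TPM in Stiff-TW, 2.93, 2.84 and 2.60 in Stiff+mito, 3.13, 3.34 and 2.97 in Stiff, 2.93, 2.69 and 2.69 in Soft-TW, 1.58, 1.81 and 2.60 in Soft+mito, and 1.24, 1.04 and 1.71 in Soft. Soft was the lowest group and Stiff the highest, and Stiff-TW lay below Stiff in all 3 libraries. Its change was -0.33 ± 0.16 (adjusted p = 0.0539) on the stiff matrix and 1.17 ± 0.18 (adjusted p = 2.13e-08) on the soft one, and the 2 differed by -1.49 ± 0.24 (adjusted p = 1.28e-07). Ifit2, the most abundant of the family, had 15.4, 15.2 and 14.6 TPM in Stiff-TW against 16.7, 17.0 and 17.6 in Stiff, and 11.9, 11.5 and 13.0 in Soft-TW against 18.6, 17.1 and 15.8 in Soft. It fell with TW on both matrices without overlap, with log2 fold changes of -0.13 ± 0.051 (adjusted p = 0.0198) on the stiff and -0.41 ± 0.053 (adjusted p = 7.87e-11) on the soft matrix. The Ifit2 call on the stiff matrix was lost without Stiff replicate 3 or Stiff-TW replicate 3 (adjusted p up to 0.0818) or by DESeq2 (adjusted p = 0.0671). Ifit3, next to Ifit2 on chromosome 19, had 2.67, 3.06 and 2.72 TPM in Stiff-TW, 2.38, 1.34 and 1.64 in Stiff+mito, 0.84, 1.10 and 1.40 in Stiff, 1.55, 1.27 and 1.30 in Soft-TW, 1.14, 1.30 and 1.05 in Soft+mito, and 1.32, 1.03 and 1.32 in Soft. It rose by 1.40 ± 0.23 (adjusted p = 3.21e-08) on the stiff matrix, while on the soft one the change was 0.28 ± 0.26 (adjusted p = 0.365), a difference of 1.13 ± 0.35 (adjusted p = 0.00634). Ifit3 and its copy Ifit3b had divided reads in 13 of 18 libraries each, so the split between them is uncertain.

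Isg15, a ubiquitin-like protein attached to other proteins in infected cells, was at 29.4, 30.01 and 34.6 TPM in Stiff-TW, 21.7, 22.6 and 22.2 in Stiff+mito, 22.8, 18.2 and 28.1 in Stiff, 28.1, 29.8 and 26.9 in Soft-TW, 20.7, 19.1 and 22.0 in Soft+mito, and 15.1, 16.2 and 15.6 in Soft. All TW libraries exceeded the Soft ones, and the 3 Stiff libraries were widely spread. Isg15 rose by 0.56 ± 0.11 (adjusted p = 7.26e-06) on the stiff and 0.95 ± 0.13 (adjusted p = 1.17e-10) on the soft matrix. Usp18, which removes Isg15 and restrains the type I receptor, rose by 0.97 ± 0.13 (adjusted p = 9.11e-11) and 0.97 ± 0.15 (adjusted p = 9.4e-09) in the same order, with 8.18, 8.68 and 7.57 TPM in Stiff-TW against 4.30, 4.24 and 4.37 in Stiff, and 5.28, 6.21 and 6.60 in Soft-TW against 3.61, 3.25 and 3.12 in Soft. Herc6, the main Isg15 ligase in mouse, rose by 0.47 ± 0.063 (adjusted p = 1.35e-10) on the stiff matrix and by 0.14 ± 0.064 (adjusted p = 0.0492) on the soft one. The Herc6 call on the soft matrix was lost without Soft replicate 1, Soft replicate 3, Soft-TW replicate 1 or Soft-TW replicate 2 (adjusted p up to 0.243) or with RLE size factors (adjusted p = 0.0664), with library totals as the scale (adjusted p = 0.238), without a filter on low counts (adjusted p = 0.119), by DESeq2 (adjusted p = 0.2) and with only the groups compared in the fit (adjusted p = 0.0555).

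Parp12, Parp14, Parp9 and Dtx3l modify proteins with ADP-ribose or ubiquitin in antiviral responses. All 4 rose in Stiff-TW, by 0.47 to 0.87, and 3 of 4 in Soft-TW, where 35.5% and 28.9% of all genes rose. Parp12, the most abundant, had 26.7, 27.9 and 26.8 TPM in Stiff-TW against 20.6, 20.0 and 19.9 in Stiff, and 23.9, 22.5 and 23.6 in Soft-TW against 24.9, 25.5 and 24.0 in Soft. Every Stiff-TW library lay above Stiff, while on the soft matrix the TPM of Soft-TW was slightly under that of Soft and the normalised counts overlapped, with changes of 0.47 ± 0.046 (adjusted p = 1.37e-16) and 0.02 ± 0.046 (adjusted p = 0.716) and a difference of 0.45 ± 0.065 (adjusted p = 6.25e-09). Parp14 rose by 0.87 ± 0.089 (adjusted p = 1.25e-15) on the stiff matrix, the largest change of the 4 there, and by 0.57 ± 0.098 (adjusted p = 3.8e-07) on the soft one. The annotated ends of Parp9 and Dtx3l overlap by 0.557 kb on chromosome 16, and reads of each were divided in 10 libraries. In Stiff replicate 1 they had 211.42 and 243.58 counts, whose fractions make up a whole count, so the 2 genes shared reads. Whether strand was used in counting is not stated. The split behind their values (0.60 and 0.77 on the stiff, 0.52 and 0.83 on the soft matrix) is thus uncertain.

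Of the TRIM ligases and nuclear bodies, all 4 rose on both matrices, by 0.35 to 0.53 on the stiff and 0.19 to 0.49 on the soft one. Over all genes tested 35.5% and 28.9% rose in the same order. Trim25, a ubiquitin ligase that acts on RIG-I and its cofactors, had 32.3, 33.2 and 31.5 TPM in Stiff-TW against 22.9, 23.9 and 22.4 in Stiff, and 34.7, 37.1 and 35.7 in Soft-TW against 28.8, 26.7 and 27.3 in Soft. The groups were well apart, with 0.53 ± 0.035 (adjusted p = 8.47e-27) and 0.49 ± 0.033 (adjusted p = 9.62e-26) on the stiff and soft matrix. Trim30a rose by 0.52 and 0.33, Trim21, a cytosolic antibody receptor, by 0.35 and 0.28, and Sp100, a component of PML nuclear bodies, by 0.53 and 0.19 in the same order. The Trim21 call on the soft matrix was lost without Soft replicate 1 or Soft-TW replicate 3 (adjusted p up to 0.0797) or with library totals as the scale (adjusted p = 0.0547) and by DESeq2 (adjusted p = 0.101). The Sp100 call on the soft matrix was lost without Soft replicate 1, Soft replicate 2, Soft-TW replicate 1, Soft-TW replicate 2 or Soft-TW replicate 3 (adjusted p up to 0.18) or with RLE size factors (adjusted p = 0.0554), with library totals as the scale (adjusted p = 0.162), without a filter on low counts (adjusted p = 0.0828) and by DESeq2 (adjusted p = 0.177). Reads of Trim30a and Sp100 were divided between features in 16 and 18 libraries.

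Among direct antiviral effectors, Isg20, an exonuclease that degrades RNA, had 57.7, 59.9 and 57.9 TPM in Stiff-TW, 26.4, 24.2 and 27.4 in Stiff+mito, 20.7, 17.6 and 19.5 in Stiff, 38.7, 42.7 and 43.3 in Soft-TW, 22.1, 17.3 and 17.8 in Soft+mito, and 19.4, 18.1 and 15.7 in Soft. The TW libraries lay far above the rest. It rose by 1.59 ± 0.076 (adjusted p = 1.21e-37) on the stiff and 1.11 ± 0.078 (adjusted p = 1.29e-24) on the soft matrix, and the stiff response was larger by 0.48 ± 0.11 (adjusted p = 0.000293). Ifitm3 rose by 0.49 ± 0.031 (adjusted p = 8.53e-23) and 0.39 ± 0.035 (adjusted p = 1.8e-15), and Bst2 by 0.49 ± 0.044 (adjusted p = 1e-18) and 0.62 ± 0.048 (adjusted p = 7.84e-22). Samd9l, a restriction factor of poxviruses, was at -0.02 ± 0.057 (adjusted p = 0.747) on the stiff matrix and rose by 0.23 ± 0.059 (adjusted p = 0.000562) on the soft one. Rsad2, or viperin, which makes a chain-terminating nucleotide, went the other way. Its levels were 0.11, 0.22 and 0.14 TPM in Stiff-TW, 0.30, 0.27 and 0.27 in Stiff+mito, 0.44, 0.66 and 0.39 in Stiff, 0.03, 0.24 and 0.11 in Soft-TW, 0.37, 0.32 and 0.15 in Soft+mito, and 0.14, 0.19 and 0.08 in Soft. Stiff was its highest group, above every Stiff-TW library. Its counts summed to 17 in Stiff-TW and 54 in Stiff, a ratio of 0.321 (exact 95% interval of counting error 0.174 to 0.562, adjusted p = 0.000193). That call carries selection, because Rsad2 passed the low-count limit in 1 group only. On the soft matrix the sums were 14 and 15 for Soft-TW and Soft, with overlapping libraries (adjusted p = 0.946).

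**Figure D4:**
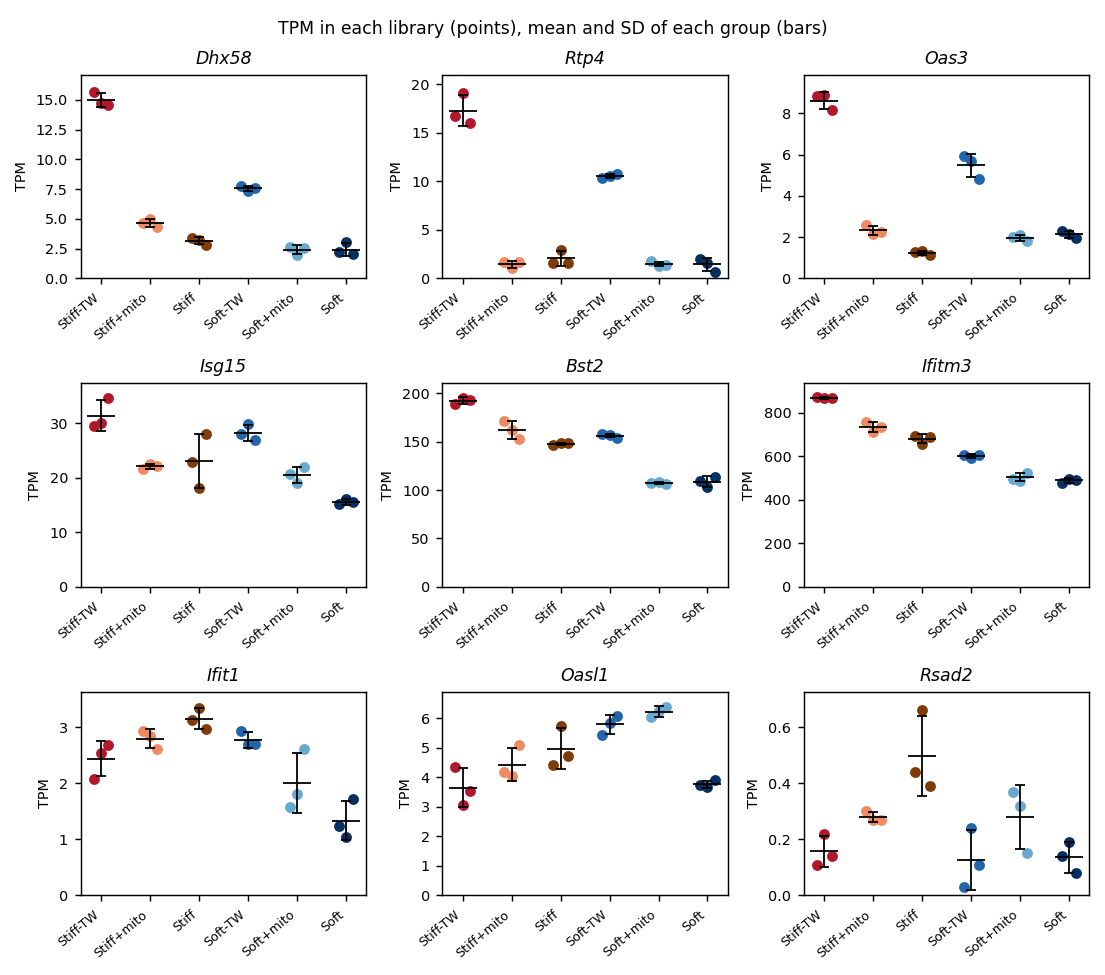
TPM of 9 members in each library (points) with the mean and SD of the group (bars, n = 3), from Stiff-TW on the left to Soft on the right. In Dhx58, Rtp4 and Oas3 the 2 TW groups stand apart, in Bst2 and Ifitm3 the matrix also orders the groups, and in Ifit1, Oasl1 and Rsad2 Stiff-TW lies at or below Stiff.

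The interferon-inducible GTPases, which act on the vacuoles of intracellular pathogens, were higher with TW for 6 of 6 on the stiff and 4 of 6 on the soft matrix. Over all genes tested 35.5% and 28.9% rose in these comparisons. Irgm1, a regulator of the family and its most abundant member here, had 27.2, 25.8 and 28.7 TPM in Stiff-TW against 22.3, 21.4 and 22.0 in Stiff, and 24.1, 25.4 and 24.7 in Soft-TW against 25.9, 24.9 and 25.4 in Soft. It rose by 0.39 ± 0.056 (adjusted p = 8.99e-10) on the stiff matrix and was at 0.09 ± 0.055 (adjusted p = 0.155) on the soft one, where its TPM overlapped, a difference of 0.30 ± 0.078 (adjusted p = 0.00115). Gbp3 was at 8.38, 7.94 and 6.43 TPM in Stiff-TW, 3.09, 3.90 and 3.55 in Stiff+mito, 3.67, 3.88 and 3.79 in Stiff, 3.69, 4.43 and 3.77 in Soft-TW, 2.46, 2.86 and 2.63 in Soft+mito, and 2.20, 2.67 and 2.55 in Soft. The Stiff-TW libraries stood out, with 1.06 ± 0.11 (adjusted p = 1.74e-15) on the stiff and 0.79 ± 0.14 (adjusted p = 3.84e-07) on the soft matrix. Gbp7 was at 4.59, 5.37 and 5.08 TPM in Stiff-TW, 3.60, 3.07 and 2.95 in Stiff+mito, 2.92, 3.11 and 2.69 in Stiff, 3.08, 2.88 and 2.54 in Soft-TW, 1.60, 1.41 and 1.29 in Soft+mito, and 1.74, 1.95 and 1.63 in Soft, and rose by 0.82 ± 0.088 (adjusted p = 9.99e-15) and 0.79 ± 0.11 (adjusted p = 7.77e-10). Gbp2 and Igtp rose by 0.67 and 0.46 on the stiff and by 0.41 and 0.58 on the soft matrix, and Ifi47 by 0.22 on the stiff one (soft 0.07 ± 0.069, adjusted p = 0.364).

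Rtp4, an interferon-induced receptor chaperone, had the largest change of the remaining genes on the stiff matrix, at 16.7, 19.1 and 16.0 TPM in Stiff-TW, 1.68, 1.05 and 1.69 in Stiff+mito, 1.62, 2.92 and 1.63 in Stiff, 10.3, 10.6 and 10.8 in Soft-TW, 1.76, 1.32 and 1.38 in Soft+mito, and 2.03, 1.61 and 0.68 in Soft. All 6 TW libraries were at 10 TPM or more and all 12 others under 3. Rtp4 rose by 2.93 ± 0.17 (adjusted p = 2.44e-31) on the stiff and 2.66 ± 0.2 (adjusted p = 3.39e-23) on the soft matrix. Xaf1, a partner of the apoptosis inhibitor XIAP, had 10.5, 11.2 and 10.7 TPM in Stiff-TW, 3.09, 4.13 and 4.65 in Stiff+mito, 2.93, 2.15 and 2.75 in Stiff, 8.82, 9.32 and 8.76 in Soft-TW, 3.15, 1.71 and 3.28 in Soft+mito, and 3.14, 2.88 and 2.37 in Soft. It rose by 2.13 ± 0.11 (adjusted p = 6.31e-34) on the stiff and 1.63 ± 0.12 (adjusted p = 1.9e-23) on the soft matrix, without overlap. Ifi44, from low counts, summed to 44 in Stiff-TW and 10 in Stiff, a ratio of 4.49 (exact 95% interval of counting error 2.22 to 10, adjusted p = 3.45e-05). In Soft-TW it summed to 47, against 3 in Soft, a ratio of 16.2 (5.21 to 81.3, adjusted p = 1.73e-08). Both calls carry selection, because Ifi44 passed the low-count limit in 1 group only. Its libraries were at 0.36, 0.64 and 0.68 TPM in Stiff-TW against 0.16, 0.12 and 0.12 in Stiff, and 0.70, 0.56 and 0.49 in Soft-TW against 0, 0.08 and 0.04 in Soft, with no overlap. Ifi27 rose by 1.12 ± 0.037 (adjusted p = 1.01e-51) and 0.88 ± 0.037 (adjusted p = 5.62e-42), and Lgals3bp, a secreted glycoprotein, by 0.31 ± 0.033 (adjusted p = 4.65e-15) and 0.32 ± 0.037 (adjusted p = 6.51e-13). Ifi35 rose by 0.23 ± 0.089 (adjusted p = 0.0195) on the stiff matrix and was at 0.09 ± 0.088 (adjusted p = 0.396) on the soft one. The Ifi35 call on the stiff matrix was lost without Stiff replicate 2, Stiff-TW replicate 1 or Stiff-TW replicate 2 (adjusted p up to 0.0992) or with library totals as the scale (adjusted p = 0.0655) and by DESeq2 (adjusted p = 0.105).

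The TW response of 17 of the 40 members differed between matrices, larger or more positive on the stiff matrix in 13 and the reverse in 4, where 16.4% and 19.7% of all genes passed in these directions. By DESeq2 the counts were 8 and 2. Oas3, Ifit3 and Dhx58 had the largest differences among the 13, and Ifit1, Oasl1 and Ifih1 among the 4, with the values given beside each gene. For Ifit1 the 2 TW groups themselves did not differ beyond their spread (-0.17 ± 0.16, adjusted p = 0.379), while the plain matrices did (1.33 ± 0.18, adjusted p = 2.18e-10).

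With mito fewer members passed and their changes were smaller. In Stiff+mito against Stiff, 13 members rose and 1 fell, where 15.6% of all genes rose and 17.8% fell. In Soft+mito against Soft, 6 rose and 3 fell, where 14.8% rose and 11.9% fell. On the soft matrix the counts thus lie near or under the shares over all genes. Over the 35 members that passed the low-count limit everywhere the counts were 12 and 1, and 6 and 3. The medians were 0.07 on the stiff matrix, against 0.00 over all genes, and -0.00 on the soft one, against 0.01. The summed macrophage markers were 59.1 to 63.7 against 46.6 to 50.9 TPM on the stiff matrix and 63.9 to 67.7 against 54.7 to 55 on the soft one, and fibroblast markers 99.5 to 106 against 85.2 to 86.3, and 60.8 to 64.4 against 67.5 to 70.4. The epithelial sums were 733 to 759 against 696 to 714 TPM, and 1031 to 1043 against 999 to 1028, and the part of these lists was not tested.

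On the stiff matrix Oas2 had 4 to 6 counts per Stiff+mito library and 0 in Stiff, so it was at least 1.65-fold higher against the floor of 3 counts per library (adjusted p = 0.000171). Oas3 rose by 0.89 ± 0.14 (adjusted p = 4.39e-08), with every Stiff+mito library above every Stiff one. Ifit3 rose by 0.70 ± 0.25 (adjusted p = 0.0193), with overlapping libraries. The Ifit3 call was lost without Stiff replicate 1, Stiff replicate 2 or Stiff+mito replicate 1 (adjusted p up to 0.224) or by DESeq2 (adjusted p = 0.0826). Dhx58 rose by 0.56 ± 0.13 (adjusted p = 0.000305), Xaf1 by 0.48 ± 0.14 (adjusted p = 0.00467) and Isg20 by 0.40 ± 0.089 (adjusted p = 0.000127), each without overlap. The Xaf1 call was lost without Stiff replicate 3 (adjusted p = 0.0504). The other 7 that rose were Sp100 (0.26), Parp12 (0.21), Dtx3l (0.19), Bst2 (0.17), Ifitm3 (0.16), Ifi27 (0.13) and Lgals3bp (0.11). The Sp100 call was lost without Stiff replicate 3 or Stiff+mito replicate 3 (adjusted p up to 0.142). The Dtx3l call was lost without Stiff replicate 1, Stiff replicate 2, Stiff+mito replicate 1 or Stiff+mito replicate 3 (adjusted p up to 0.144) or by DESeq2 (adjusted p = 0.128). The Ifi27 call was lost without Stiff replicate 1 or Stiff+mito replicate 3 (adjusted p up to 0.0981). The Lgals3bp call was lost without Stiff+mito replicate 3 (adjusted p = 0.0681). Eif2ak2 fell (-0.21 ± 0.036; adjusted p = 1.24e-06), and Rsad2, at -0.81 ± 0.35 (adjusted p = 0.061), did not pass although all 3 Stiff+mito libraries lay below the Stiff ones. Without Stiff replicate 3 the count that fell was 2.

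On the soft matrix Oasl1 rose by 0.83 ± 0.13 (adjusted p = 1.02e-07), with 6.05, 6.26 and 6.40 TPM in Soft+mito, against 3.73, 3.68 and 3.90 in Soft. The 2 groups were far apart beside their spread. Ifit1 rose by 0.69 ± 0.19 (adjusted p = 0.004), with overlapping libraries. The Ifit1 call was lost without Soft+mito replicate 3 (adjusted p = 0.156). Isg15 rose by 0.48 ± 0.13 (adjusted p = 0.00307), without overlap. Smaller rises were those of Isg20 (0.24), Ifi27 (0.19) and Ifitm3 (0.13). The Isg20 call was lost without Soft replicate 3 or Soft+mito replicate 1 (adjusted p up to 0.26) or with library totals as the scale (adjusted p = 0.0578), by DESeq2 (adjusted p = 0.105) and with only the groups compared in the fit (adjusted p = 0.0524). The Ifitm3 call was lost without Soft replicate 1 or Soft+mito replicate 3 (adjusted p up to 0.112). The 3 members that fell were Parp14 (-0.29 ± 0.11, adjusted p = 0.0417), Trim30a (-0.21 ± 0.065, adjusted p = 0.00994) and Eif2ak2 (-0.19 ± 0.035, adjusted p = 1.05e-05). The Parp14 call was lost without Soft replicate 2, Soft replicate 3, Soft+mito replicate 1 or Soft+mito replicate 2 (adjusted p up to 0.244) or without a filter on low counts (adjusted p = 0.0518) and by DESeq2 (adjusted p = 0.142). The Trim30a call was lost without Soft replicate 2 or Soft+mito replicate 1 (adjusted p up to 0.139) or by DESeq2 (adjusted p = 0.0599). The count of 3 was 1 without Soft replicate 2, without Soft+mito replicate 1 or by DESeq2.

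Eif2ak2 passed as lower and Isg20, Ifi27 and Ifitm3 as higher with mito on both matrices, which share no library. These 3 are 50% of the 6 members that rose on the soft matrix and 23.1% of the 13 on the stiff one. The matching share over all genes was not computed. Each of the 3 lost its call on 1 matrix in an alternative, Isg20 and Ifitm3 on the soft and Ifi27 on the stiff one. The mito response differed between matrices in 9 members, more positive on the stiff matrix in 5 and the reverse in 4, where 10.4% and 13.1% of all genes passed. These counts lie near the shares over all genes. The 5 became 3 without Soft replicate 1, Soft+mito replicate 2 or Stiff replicate 3, and the 4 became 2 without Soft+mito replicate 3. By DESeq2 the counts were 3 and 2, and with only the groups compared in the fit the 5 became 3. Oas3 led the 5 with 0.90 ± 0.18 (adjusted p = 6.62e-05) apart from Oas2, whose fitted value depends on the 0 counts in Stiff, and Xaf1 followed with 0.56 ± 0.21 (adjusted p = 0.0401). The difference in Xaf1 did not pass without Soft replicate 1, Soft replicate 3, Soft+mito replicate 2, Stiff replicate 3 or Stiff+mito replicate 3 (adjusted p up to 0.126) or without a filter on low counts (adjusted p = 0.0631), by DESeq2 (adjusted p = 0.123) and with only the groups compared in the fit (adjusted p = 0.0503). The 4 were Rsad2 (-1.88 ± 0.58, adjusted p = 0.00997), Oasl1 (-0.99 ± 0.18, adjusted p = 8.76e-06), Ifit1 (-0.86 ± 0.25, adjusted p = 0.00531) and Isg15 (-0.50 ± 0.18, adjusted p = 0.0318). Rsad2 passed the low-count limit in 1 group and was highest in Stiff, so its difference carries that selection. The difference in Ifit1 did not pass without Soft+mito replicate 3 (adjusted p = 0.0936). The difference in Isg15 did not pass without Soft replicate 1, Soft+mito replicate 3, Stiff replicate 3 or Stiff+mito replicate 1 (adjusted p up to 0.222) or by DESeq2 (adjusted p = 0.129).

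The stiff matrix went with higher levels of many members under each condition. In Stiff-TW against Soft-TW, 30 of 40 rose and 2 fell, where 27.6% of all genes rose and 26.7% fell. In Stiff+mito against Soft+mito, 22 rose and 3 fell, where 32.7% rose and 30.8% fell. In Stiff against Soft, 20 rose and 4 fell, where 29.1% rose and 24.7% fell. For the 35 members past the low-count limit in every group the counts were 27 and 2, 21 and 3, and 19 and 4 in the same order. The medians were 0.37, 0.34 and 0.27, against 0.00, 0.01 and 0.01 over all genes. With RLE size factors or library totals 5 members fell within mito. The summed epithelial markers were lower on the stiff matrix, 671 to 682 against 764 to 783 TPM within TW, 733 to 759 against 1031 to 1043 within mito and 696 to 714 against 999 to 1028 in the plain groups. The macrophage sums were also lower under each condition and the fibroblast sums higher, and the part of these lists was not tested.

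**Figure D5:**
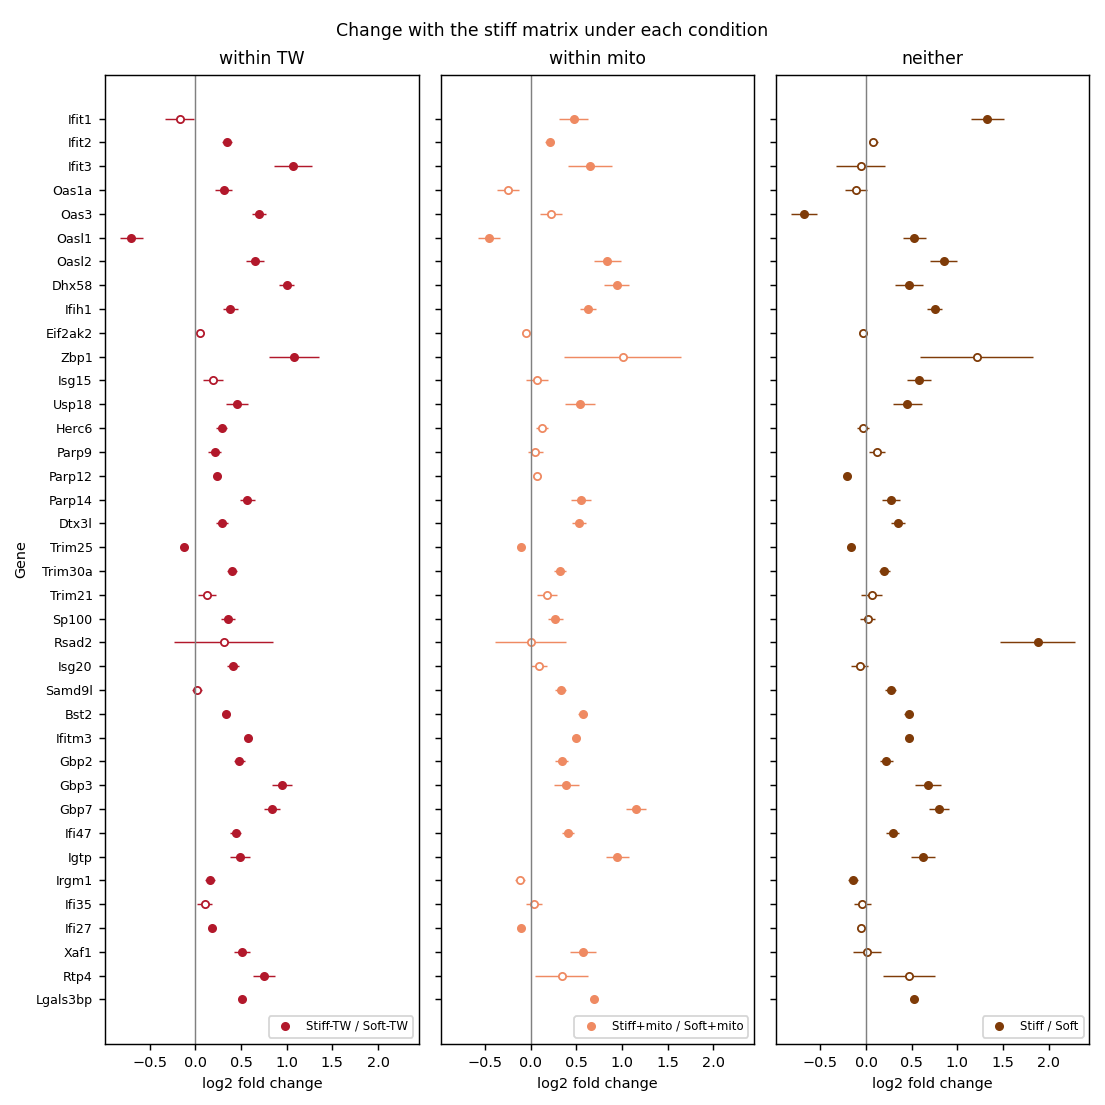
Log2 fold change (points) and approximate standard error (lines) of 38 members on the stiff against the soft matrix, within TW, within mito and in the plain groups (Stiff and Soft), filled where the adjusted p was under 0.05. Gbp7, Gbp3, Ifitm3 and Lgals3bp lie to the right of 0 in all 3 panels, Trim25 lies to the left in all 3, and Oasl1 changes side between the first 2 panels and the last.

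Within TW the 6 members that rose most were Zbp1 (1.08 ± 0.27, adjusted p = 0.000366), Ifit3 (1.07 ± 0.21, adjusted p = 1.1e-05), Dhx58 (1.00 ± 0.085, adjusted p = 1.35e-19), Gbp3 (0.95 ± 0.11, adjusted p = 3.14e-13), Gbp7 (0.84 ± 0.088, adjusted p = 1.23e-14) and Rtp4 (0.75 ± 0.12, adjusted p = 1.35e-07). In each of the 6 all Stiff-TW libraries lay above all Soft-TW ones. Oasl1 (-0.70 ± 0.13, adjusted p = 2.33e-06) and Trim25 (-0.13 ± 0.032, adjusted p = 0.0003) were the 2 that fell, also without overlap. Of the other 24 that rose, at 0.16 to 0.70, Oas1a, Oas2, Irgm1 and Parp9 were the 4 whose call did not hold in each alternative. The Oas1a call was lost without Stiff-TW replicate 2 (adjusted p = 0.05) or by DESeq2 (adjusted p = 0.0551). The Oas2 call was lost without Soft-TW replicate 1, Soft-TW replicate 3 or Stiff-TW replicate 2 (adjusted p up to 0.156) or by DESeq2 (adjusted p = 0.181). The Irgm1 call was lost without Soft-TW replicate 1 or Stiff-TW replicate 3 (adjusted p up to 0.109) or by DESeq2 (adjusted p = 0.0923). The Parp9 call was lost without Soft-TW replicate 2 or Stiff-TW replicate 3 (adjusted p up to 0.157) or by DESeq2 (adjusted p = 0.0997).

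Within mito Oas2 rose from few counts, 15 summed over Stiff+mito against 4 over Soft+mito, a ratio of 3.88 (exact 95% interval of counting error 1.24 to 16.1, adjusted p = 0.0179). The Oas2 call was lost without Soft+mito replicate 1, Soft+mito replicate 3 or Stiff+mito replicate 1 (adjusted p up to 0.112). Gbp7 rose by 1.15 ± 0.11 (adjusted p = 8.32e-17), Igtp by 0.95 ± 0.13 (adjusted p = 5.68e-10), Dhx58 by 0.94 ± 0.14 (adjusted p = 2.09e-09), Oasl2 by 0.84 ± 0.15 (adjusted p = 1.4e-06) and Lgals3bp by 0.69 ± 0.035 (adjusted p = 5.19e-35). Igtp, a GTPase also called Irgm3, had 8.14, 7.24 and 7.94 TPM in Stiff-TW, 5.89, 6.29 and 7.37 in Stiff+mito, 6.24, 5.85 and 5.52 in Stiff, 5.53, 6.55 and 4.75 in Soft-TW, 3.88, 3.26 and 2.96 in Soft+mito, and 4.52, 3.85 and 3.74 in Soft, with every stiff library above those of the soft group of its condition. Lgals3bp had 102, 99.96 and 99.5 TPM in Stiff-TW, 88.7, 89.2 and 92.5 in Stiff+mito, 83.4, 82.2 and 85.8 in Stiff, 72.0, 72.0 and 70.1 in Soft-TW, 55.6, 52.8 and 57.5 in Soft+mito, and 62.3, 59.7 and 63.3 in Soft, likewise without overlap between the matrices. The 3 that fell were Oasl1 (-0.46 ± 0.12, adjusted p = 0.000637), Trim25 (-0.11 ± 0.036, adjusted p = 0.00688) and Ifi27 (-0.11 ± 0.04, adjusted p = 0.00889). The Ifi27 call was lost without Stiff+mito replicate 1 (adjusted p = 0.0801). The calls of Ifit1 (0.47), Ifit3 (0.65) and Gbp3 (0.39) also depended on a library. The Ifit1 call was lost without Soft+mito replicate 1 or Soft+mito replicate 2 (adjusted p up to 0.116) or by DESeq2 (adjusted p = 0.0638). The Ifit3 call was lost without Soft+mito replicate 3 or Stiff+mito replicate 1 (adjusted p up to 0.198) or by DESeq2 (adjusted p = 0.0712). The Gbp3 call was lost without Soft+mito replicate 1 or Stiff+mito replicate 2 (adjusted p up to 0.0782) or by DESeq2 (adjusted p = 0.0606).

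In the plain groups Rsad2 summed to 54 counts in Stiff and 15 in Soft, a ratio of 3.75 (exact 95% interval of counting error 2.09 to 7.16, adjusted p = 4.47e-05). That call carries selection, because Rsad2 passed the low-count limit in 1 group and was highest in Stiff. Ifit1 rose by 1.33 ± 0.18 (adjusted p = 2.18e-10), Oasl2 by 0.85 ± 0.15 (adjusted p = 1.18e-06), Gbp7 by 0.80 ± 0.11 (adjusted p = 4.58e-10), Ifih1 by 0.75 ± 0.085 (adjusted p = 2.69e-13) and Gbp3 by 0.68 ± 0.14 (adjusted p = 1.56e-05). None of the 6 overlapped between Stiff and Soft. The 4 that fell were Oas3 (-0.68 ± 0.14, adjusted p = 1.36e-05), Parp12 (-0.21 ± 0.047, adjusted p = 6.23e-05), Trim25 (-0.17 ± 0.036, adjusted p = 4.26e-05) and Irgm1 (-0.14 ± 0.057, adjusted p = 0.027). The Irgm1 call was lost without Soft replicate 1, Soft replicate 3, Stiff replicate 2 or Stiff replicate 3 (adjusted p up to 0.077) or by DESeq2 (adjusted p = 0.0826). The other 14 that rose lay between 0.20 and 0.62, and 3 of them, Dhx58, Parp14 and Usp18, lost the call in an alternative. The Dhx58 call was lost without Soft replicate 3 (adjusted p = 0.0576). The Parp14 call was lost without Soft replicate 1 or Stiff replicate 2 (adjusted p up to 0.15) or by DESeq2 (adjusted p = 0.101). The Usp18 call was lost by DESeq2 (adjusted p = 0.0677). Oas3 fell on the stiff matrix in the plain groups and rose there within TW, by 0.70, and Oasl1 rose by 0.53 ± 0.13 (adjusted p = 0.000445) in the plain groups and fell within TW and within mito.

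The genes that make, receive and transmit the interferon signal were followed in a list of their own, of which 38 were tested. Of the ligands, Ifnb1 was at 0.20 TPM in 1 Soft+mito library and at 0 in the other 17, and Ifng, Ifnl2, Ifnl3 and Ifnk each had a value above 0 in at most 2 libraries, none above 0.44 TPM. Ifna1, Ifna2, Ifna4, Ifna5 and Ifne were not analysed here. The receptor chains were present in every library, Ifnar1 with group means of 18.3 ± 0.495 TPM in Stiff-TW and 17.1 ± 0.191 in Stiff, and Ifnar2 with 59.3 ± 2.79 and 52.7 ± 2.55.

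With TW, 25 of the 38 rose and 6 fell on the stiff matrix, where 35.5% of all genes rose and 34.1% fell. On the soft one 21 rose and 5 fell, where 28.9% of all genes rose and 28.0% fell. Irf7, the factor that amplifies type I interferon responses, was at 16.4, 16.4 and 18.5 TPM in Stiff-TW, 2.58, 2.94 and 2.65 in Stiff+mito, 1.37, 1.92 and 1.61 in Stiff, 12.9, 11.3 and 10.7 in Soft-TW, 1.69, 1.82 and 1.44 in Soft+mito, and 1.17, 1.27 and 2.34 in Soft. As in Rtp4, the 6 TW libraries stood clear of the other 12. It rose by 3.43 ± 0.14 (adjusted p = 9.13e-44) on the stiff and 2.99 ± 0.15 (adjusted p = 3.48e-35) on the soft matrix. Stat2 and Irf9 of the response element complex rose as well. Stat2 rose by 0.70 ± 0.052 (adjusted p = 2.83e-23) and 0.39 ± 0.055 (adjusted p = 1.15e-09) and Irf9 by 0.91 ± 0.086 (adjusted p = 1.51e-17) and 0.56 ± 0.085 (adjusted p = 1.14e-08), each on the stiff and then the soft matrix. Stat2 had 17.1, 16.3 and 16.6 TPM in Stiff-TW, 9.49, 8.81 and 8.39 in Stiff+mito, 10.0, 10.8 and 10.8 in Stiff, 13.0, 12.5 and 13.5 in Soft-TW, 7.69, 7.67 and 6.55 in Soft+mito, and 10.5, 11.1 and 10.6 in Soft, with TW highest and mito lowest on both matrices. Irf5, from low levels, rose by 1.69 ± 0.28 and 1.36 ± 0.32, and Socs3, a brake on STAT3 signalling, by 1.32 ± 0.04 and 1.18 ± 0.043.

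Ifnar2 rose by 0.14 ± 0.049 (adjusted p = 0.00887) on the stiff and 0.21 ± 0.051 (adjusted p = 0.000215) on the soft matrix, and Ifnar1 by 0.13 ± 0.036 (adjusted p = 0.000725) on the stiff one (soft 0.03 ± 0.035, adjusted p = 0.468). The Ifnar2 call on the stiff matrix was lost without Stiff replicate 2 or Stiff-TW replicate 2 (adjusted p up to 0.0766) or with library totals as the scale (adjusted p = 0.0874) and by DESeq2 (adjusted p = 0.0757). The 12 tested genes of nucleic acid sensing upstream of interferon went both ways, as did all genes tested. On the stiff matrix 4 rose and 5 fell, where 35.5% of all genes rose and 34.1% fell. On the soft one 5 rose and 5 fell, where 28.9% of all genes rose and 28.0% fell. These are counts over few genes, and those on the stiff matrix lie near the shares over all genes. Ddx58, the RNA sensor RIG-I, named after its values were seen, rose by 0.90 ± 0.046 (adjusted p = 6.46e-25) on the stiff and 0.63 ± 0.048 (adjusted p = 2.73e-17) on the soft matrix. Cgas, the DNA sensor, had 6.48, 6.01 and 5.57 TPM in Stiff-TW against 8.39, 9.04 and 8.69 in Stiff, and 5.80, 6.31 and 6.08 in Soft-TW against 8.12, 8.52 and 7.94 in Soft, lower in every TW library than in its control. Its log2 fold change was -0.49 ± 0.073 (adjusted p = 2.92e-09) on the stiff and -0.32 ± 0.074 (adjusted p = 9.35e-05) on the soft matrix. The adaptor Myd88 fell as well, at -0.60 ± 0.061 (adjusted p = 6.12e-16) and -0.32 ± 0.057 (adjusted p = 6.78e-07). The kinase gene Tbk1 fell on both, at -0.31 ± 0.037 (adjusted p = 1.27e-12) and -0.24 ± 0.035 (adjusted p = 1.24e-09). The RNA sensor gene Tlr3 fell on the soft matrix (-0.32 ± 0.11, adjusted p = 0.00935) and was at -0.16 ± 0.11 (adjusted p = 0.193) on the stiff one. The Tlr3 call on the soft matrix was lost without Soft replicate 2 or Soft-TW replicate 2 (adjusted p up to 0.0946) or by DESeq2 (adjusted p = 0.055).

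With mito, 7 of the 38 rose and 9 fell on the stiff matrix, where 15.6% of all genes rose and 17.8% fell. On the soft one 3 rose and 3 fell, where 14.8% of all genes rose and 11.9% fell. On the soft matrix the list's shares thus lie under those over all genes. Socs3 had the largest rise on both, 1.38 ± 0.04 (adjusted p = 6.87e-56) and 1.13 ± 0.043 (adjusted p = 1.08e-44). Stat2 fell on both, at -0.25 ± 0.06 (adjusted p = 0.000443) and -0.46 ± 0.062 (adjusted p = 1.44e-09). Irf7 rose by 0.72 ± 0.21 (adjusted p = 0.00385) and Irf2 by 0.34 ± 0.059 (adjusted p = 9.43e-07) on the stiff matrix, where Cgas (-0.38) and Myd88 (-0.28) fell. On the soft matrix Trex1 (0.31) and Myd88 (0.17) rose and Irf1 (-0.22) and the RNA editor Adar (-0.19) fell. The Trex1 call was lost without Soft replicate 1, Soft replicate 3, Soft+mito replicate 2 or Soft+mito replicate 3 (adjusted p up to 0.162) or with library totals as the scale (adjusted p = 0.0658), without a filter on low counts (adjusted p = 0.0624), by DESeq2 (adjusted p = 0.171) and with only the groups compared in the fit (adjusted p = 0.0553). The Myd88 call was lost by DESeq2 (adjusted p = 0.0941). Irf9 did not pass in either (-0.11 and -0.14), nor did Ifnar1 (-0.01 and 0.02) and Ifnar2 (-0.07 and 0.06).

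On the stiff against the soft matrix, 19 of the 38 rose and 4 fell within TW, where 27.6% of all genes rose and 26.7% fell. Within mito 15 rose and 6 fell, where 32.7% of all genes rose and 30.8% fell. In the plain groups 11 rose and 7 fell, near or under the 29.1% and 24.7% over all genes. Irf7 rose within TW (0.58 ± 0.092, adjusted p = 4.02e-08) and within mito (0.68 ± 0.2, adjusted p = 0.00249), and was at 0.14 ± 0.24 (adjusted p = 0.65) in the plain groups. Stat2 passed in the same comparisons, with 0.38 and 0.28 in the first pair and 0.07 ± 0.058 (adjusted p = 0.314) in the plain groups. Irf9 passed within TW (0.21 ± 0.077, adjusted p = 0.0155) but not within mito (-0.10 ± 0.097, adjusted p = 0.359) or in the plain groups (-0.14 ± 0.094, adjusted p = 0.21). The Irf9 call was lost without Soft-TW replicate 1 or Stiff-TW replicate 3 (adjusted p up to 0.125) or by DESeq2 (adjusted p = 0.124). Irf5 rose within TW (0.58 ± 0.24) and had the largest rise of the list within mito (1.38 ± 0.37), and Zc3hav1, which encodes the antiviral protein ZAP, had the largest in the plain groups (0.43 ± 0.024). The Irf5 call was lost without Soft-TW replicate 1, Soft-TW replicate 2, Stiff-TW replicate 1 or Stiff-TW replicate 2 (adjusted p up to 0.134) or without a filter on low counts (adjusted p = 0.0734) and by DESeq2 (adjusted p = 0.182). Ikbke rose by 0.68 within mito and 0.42 in the plain groups. The Ikbke call in the plain groups was lost without Stiff replicate 3 (adjusted p = 0.0614). The brake gene Socs1 fell within mito (-0.62 ± 0.11) and in the plain groups (-0.36 ± 0.11). The Socs1 call in the plain groups was lost without Soft replicate 3 (adjusted p = 0.0702). Myd88, Tbk1 and Sting1 led the 4 that fell within TW (-0.32, -0.26 and -0.18), Myd88 and Trex1 fell within mito (-0.49 and -0.47), and Tyk2 and Tbk1 in the plain groups (-0.21 and -0.19). The Sting1 call was lost without Stiff-TW replicate 2 (adjusted p = 0.0624).

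In the difference of the TW response between matrices, 11 of the 38 passed as more positive on the stiff matrix and 4 as more negative, where 16.4% and 19.7% of all genes did. The first were led by Socs1 (0.45 ± 0.15, adjusted p = 0.0108), Irf9 (0.35 ± 0.12, adjusted p = 0.0163) and Stat2 (0.31 ± 0.076, adjusted p = 0.000571). Zc3hav1 (-0.37 ± 0.034, adjusted p = 3.91e-17), Myd88 (-0.28 ± 0.084, adjusted p = 0.00425) and Ptpn2 (-0.25 ± 0.07, adjusted p = 0.00219) led the 4 others. The difference in Socs1 did not pass without Soft replicate 3 (adjusted p = 0.0892) or by DESeq2 (adjusted p = 0.0715). The difference in Irf9 did not pass without Soft replicate 1, Soft replicate 2 or Stiff-TW replicate 3 (adjusted p up to 0.0785) or by DESeq2 (adjusted p = 0.0898). The difference in Myd88 did not pass without Stiff-TW replicate 1 (adjusted p = 0.0522). In the mito response 3 passed as more positive and 4 as more negative, near or under the 10.4% and 13.1% over all genes. The 3 were Irf2 (0.33), Socs3 (0.25) and Samhd1 (0.15), and the 4 included Myd88 (-0.45), Ptpn2 (-0.29) and Tbk1 (-0.18). The difference in Samhd1 did not pass without Soft+mito replicate 1 or Stiff replicate 2 (adjusted p up to 0.0913) or by DESeq2 (adjusted p = 0.0916).

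Set beside the promoter letters, 20 tested members held the response element core and 12 had a window without it. In Stiff-TW against Stiff, 16 of the 20 rose and 1 fell, with a median log2 fold change of 0.51, and 10 of the 12 rose and 2 fell, with a median of 0.47. In Soft-TW against Soft, 17 of the 20 rose and 0 fell (median 0.45), and 8 of the 12 rose and 1 fell (median 0.26). In Stiff against Soft, 12 of the 20 rose and 3 fell (median 0.37), and 5 of the 12 rose and 1 fell (median 0.05). These are counts over few genes, with no test of the difference.

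Several members lie side by side in the genome (RefSeq GRCm38.p6), and their responses did not always match those of their neighbours. On chromosome 19, Ifit2 (34550550 to 34576534), Ifit3 (34583119 to 34588982), Ifit3b (34607530 to 34613403) and Ifit1 (34640889 to 34650009) form a cluster in which, with TW on the stiff matrix, Ifit3 rose, Ifit2 fell and Ifit1 did not pass. On chromosome 5, Oasl2 (114896926 to 114912245) and Oasl1 (114923143 to 114937911) are 10.9 kb apart and had opposite signs with TW on the stiff matrix, whereas Oas2 (120730333 to 120749886) and Oas3 (120753098 to 120777684), 3.21 kb apart, both rose. On chromosome 3, Gbp7 (142530336 to 142550151), Gbp3 (142560016 to 142573213) and Gbp2 (142620663 to 142638008) rose together with TW on both matrices. On chromosome 12, Rsad2 (26442743 to 26456452) and the untested Cmpk2 (26469117 to 26479837) are 12.7 kb apart. Cmpk2 summed to 6 counts in Stiff-TW and 1 in Stiff, a ratio of 6.12 (exact 95% interval of counting error 0.742 to 281). That interval includes no change, so Cmpk2 cannot be set against Rsad2.

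In the transcript table most members had 1 leading transcript. Bst2, Ifitm3, Isg15, Ifit1 and Rsad2 each had a single one. Oas3 kept its leading transcript at 92.3% of counts in Stiff-TW and 94.9% in Stiff, and at 86.4% in Soft-TW and 92.2% in Soft. The leading, predicted transcript of Rtp4 held 88.3% in Stiff-TW against 63.5% in Stiff, and 89.9% in Soft-TW against 44.1% in Soft, where the plain groups rest on 64 and 48 counts in all. For Isg20 the leading transcript held 94.2% in Stiff-TW against 87.8% in Stiff, and 86.4% in Soft-TW against 68.5% in Soft. These shares are the deposited estimates, pooled over 3 libraries, and were not tested.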

How the data were processed

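RNA of the 18 libraries was enriched by poly(A) selection and made into strand-specific paired-end libraries, per the labels' protocols. The genome build was mm10, per the submitters' processing notes. Aligner, quantification tool and gene annotation were not given in the sources used here. As expression values the authors deposited estimated counts and TPM per gene and estimated counts per transcript, and 33 columns of averages in the gene table were not used. Of the deposited estimated counts per gene, 10.9% were not whole (tolerance 0.001), and all were rounded for tests. The deposited TPM was used as a level only.

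Genes with a CPM of at least 0.611 (10 counts) in 3 libraries were tested with edgeR 4.0.16 (R 4.3.3, limma 3.58.1), using TMM scaling, 1 mean per group over all 18 libraries and the quasi-likelihood F test, two-sided, with Benjamini-Hochberg adjustment over 12245 genes and a threshold of 0.05. Differences between matrices were interaction terms. The standard error is the log2 fold change over the square root of F, and is approximate. Library totals were 16054637 to 16887244 and TMM factors 0.968 to 1.03. Intervals of count ratios and the floor of 3 counts cover counting error only. The fitting steps were tested on simulated data.

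The members and the pathway and marker lists were chosen with earlier results of these data known. Named in each comparison were up to 6 members per direction with the largest called change (3 for interactions and for the pathway list), the most abundant member of each role, and the main interferon receptor and transcription factor genes. The remaining members are named to account for the list. For 1 gene of the pathway list the values are not reported here. The alternatives were RLE size factors, library totals, no filter on low counts, DESeq2 1.42.0, fits of only the groups compared, a replicate block, CPM in place of TPM, a shorter motif core and each library left out in turn. Gene positions came from RefSeq GRCm38.p6, which has the coordinates of mm10, where 18257 of the 18397 gene IDs matched.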

Additional observations from a re-analysis of the deposited data

Results flagged for a closer look

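Results were picked out here where the response to a condition differed between the 2 matrices by a test of the difference itself, the interaction term of edgeR's quasi-likelihood fit, with Benjamini-Hochberg adjustment over all genes tested. Each value is the log2 response on the stiff matrix minus that on the soft one. Of all genes tested, 16.4% passed as positive and 19.7% as negative for TW, and 10.4% and 13.1% for mito. The number of members that passed for mito lies near these shares.

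For TW the difference was positive in Oas3 (1.38), Ifit3 (1.13), Dhx58 (0.53), Xaf1 (0.50), Isg20 (0.48), Parp12 (0.45), Oas1a (0.42), Sp100 (0.34), Herc6 (0.32), Irgm1 (0.30), Ifit2 (0.28), Gbp2 (0.26) and Ifi27 (0.24). It was negative in Ifit1 (-1.49), Oasl1 (-1.23), Ifih1 (-0.37) and Samd9l (-0.25). For Ifit2 both responses were negative, and the one on the soft matrix was the larger. The Xaf1 difference did not pass without Soft replicate 1, Soft replicate 3 or Stiff replicate 3 (adjusted p up to 0.0891) or by DESeq2 (adjusted p = 0.091). The Oas1a difference did not pass without Soft replicate 3, Stiff replicate 2 or Stiff-TW replicate 2 (adjusted p up to 0.126) or by DESeq2 (adjusted p = 0.11). The Sp100 difference did not pass without Soft replicate 3, Stiff replicate 3 or Stiff-TW replicate 3 (adjusted p up to 0.091) or by DESeq2 (adjusted p = 0.0673). The Gbp2 difference did not pass without Soft replicate 1 or Stiff replicate 2 (adjusted p up to 0.134) or by DESeq2 (adjusted p = 0.101). The Samd9l difference did not pass without Soft replicate 3 or Stiff replicate 1 (adjusted p up to 0.0644) or by DESeq2 (adjusted p = 0.0794). The Dhx58 difference did not pass without Soft replicate 2 or Stiff replicate 3 (adjusted p up to 0.197) or by DESeq2 (adjusted p = 0.0561). The Ifih1 difference did not pass without Soft-TW replicate 1 or Stiff replicate 3 (adjusted p up to 0.0619) or by DESeq2 (adjusted p = 0.06).

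For mito the difference was positive in Oas3 (0.90), Xaf1 (0.56), Parp12 (0.28) and Lgals3bp (0.17), and in Oas2 a fitted 5.00 rests on Stiff libraries with 0 counts and depends on the prior count. It was negative in Rsad2 (-1.88), Oasl1 (-0.99), Ifit1 (-0.86) and Isg15 (-0.50). Rsad2 passed the low-count limit in 1 group and was highest in Stiff, so its difference carries that selection. The Oas2 difference did not pass without Soft replicate 1, Soft replicate 2, Soft+mito replicate 1, Stiff replicate 1, Stiff replicate 2 or Stiff replicate 3 (adjusted p up to 0.187). The Xaf1 difference did not pass without Soft replicate 1, Soft replicate 3, Soft+mito replicate 2, Stiff replicate 3 or Stiff+mito replicate 3 (adjusted p up to 0.126) or without a filter on low counts (adjusted p = 0.0631), by DESeq2 (adjusted p = 0.123) and with only the groups compared in the fit (adjusted p = 0.0503). The Lgals3bp difference did not pass without Soft+mito replicate 2 (adjusted p = 0.057). The Isg15 difference did not pass without Soft replicate 1, Soft+mito replicate 3, Stiff replicate 3 or Stiff+mito replicate 1 (adjusted p up to 0.222) or by DESeq2 (adjusted p = 0.129). The Ifit1 difference did not pass without Soft+mito replicate 3 (adjusted p = 0.0936).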

How the results depend on the processing

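None of the member or pathway results reversed under any alternative run. Of 201 member calls over 9 comparisons, 41 were lost in at least 1 alternative, 40 of them on leaving out a library and 29 under another setting. Calls of members given no adjusted p by DESeq2 were not counted as lost there, so these counts may be too low. With RLE size factors or library totals, 5 members fell in Stiff+mito against Soft+mito, where the count was otherwise 3. By DESeq2, 1 member fell in Soft+mito against Soft instead of 3. By DESeq2 the differences in mito response numbered 3 higher and 2 lower instead of 5 and 4, with 5 members given no adjusted p, and those in TW response 8 and 2 instead of 13 and 4. With only the groups compared in the fit, 3 members had a higher mito response on the stiff matrix. The cause was not tested. Leaving out a library gave 1 to 4 members that fell in Soft+mito against Soft, 1 to 2 in Stiff+mito against Stiff, and 3 to 5 higher and 2 to 4 lower differences in mito response. Library totals moved the median of all genes by at most -0.055 (log2) relative to TMM.

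The replicate numbers do not pair the libraries. With a replicate block the counts of calls were those without it, except 15 higher differences in TW response instead of 13. The deviations of 45 pairs of libraries of 1 number correlated at -0.130 to 0.197, over 0.1 in 4, with a median r of 0.006 against 0.001 for other numbers. Genes with few counts (Oas2, Zbp1, Rsad2, Ifi44 and Rtp4) have wide counting intervals, and 2 members could not be tested at this depth.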
